A study of Rattus norvegicus with 2 samples.

Results

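The genes described here encode splicing factors and RNA-binding proteins in sympathetic neurons of the stellate ganglion, compared between Wistar rats and SHRs. The rule for membership is a pattern of gene symbols that uses no value, though it was chosen with earlier results of these data known. The members fall into 13 families. Of the 25399 lines in each deposited table, 89 matched. Dissociated stellate ganglia, the main source of sympathetic fibres to the heart, were sequenced with the 10x Genomics 3′ v3 droplet chemistry. A single library was made from the Wistar rats, which are normotensive, and another from the SHRs, which were still prehypertensive, all male animals of 5 to 6 weeks of age, and the number of animals behind each library is not given in the sources used here. The authors clustered the cells and deposited, for each library, a single value per gene over its sympathetic neurons. Since each strain was sequenced as 1 library, the spread between replicates is unknown and no test, error or p-value accompanies any difference below.

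Splicing removes introns from a new transcript. The spliceosome is built from small nuclear ribonucleoproteins (snRNPs), in which U1 recognises the 5′ splice site and U2 the branch point. SR proteins, rich in serine and arginine, bind exons and recruit snRNPs, and Clk kinases phosphorylate them, whereas hnRNP and Ptbp proteins often act against exon inclusion. In neurons the Elavl, Celf, Rbfox and Nova proteins add a further layer that sets the exons and the stability of neuronal transcripts.

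A level is a gene's share of the counts of a cell, scaled to 10000 counts and averaged over the neurons of a library and converted back from the deposited natural log. The 3′ chemistry counts the end of a transcript once per molecule, so levels were not divided by gene length. A difference is that of log2(1 + mean per 10000), SHR minus Wistar, in which the added 1 makes the differences of rare transcripts small. Percent changes refer to the mean itself. A gene passed the minimum when the average of its 2 means reached 0.1 per 10000, and it was counted as lower or higher when its mean differed by at least 1.5-fold. In a mean over neurons, fewer expressing neurons and less transcript per neuron cannot be told apart. A value at or near 0 does not show that a transcript was absent, since how reads were assigned to genes was not examined.

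Each table summed to 10000, and the smallest mean above 0 was 0.000140 per 10000 in Wistar neurons and 0.000391 in SHR neurons. The number of neurons and the counts per neuron are not given in the sources used here, so the counting error of a mean is unknown and grows as the mean gets smaller. All 16 sympathetic neuron markers listed passed the minimum. Of these 12 were lower in SHR and 5 by 1.5-fold, beside 65.6% and 26.5% of all genes past the minimum. They went from Th, at 10.2 and 10.1 per 10000, to Cacna1b, 52.2% lower. The other 4 were higher, namely Chrna3 by 7.74%, Phox2a by 29.7%, Dlg4 by 31.5% and Hand2 by 80.5%. Of 9 general neuron markers 6 were higher, with a sum of 250.2 per 10000 in Wistar and 290.6 in SHR. Summed glial markers were 9.64 per 10000 in Wistar neurons and 3.83 in SHR neurons, and the 46 markers of other cell types together were 13.7 and 4.99. These transcripts of other cells were lower in SHR, as were most of the genes described here, and their part in the results was not tested.

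The 89 genes together made up 113.4 of every 10000 counts in Wistar and 78.7 in SHR, 30.6% lower. Of the 89, 77 passed the minimum and 12 did not. Among the 77, 60 had a lower mean in SHR and 17 a higher one, whereas 65.6% of all 7621 genes past the minimum were lower. The median difference was -0.09 on the log2 scale, beside -0.05 over all genes. By the 1.5-fold rule 24 of the 77 were lower, or 31.2%, beside a background of 26.5% of all genes, and 3 were higher, or 3.90%, beside 5.22%. Over all 77 genes these counts thus lay near the background, and the families differed from each other.

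Abundant members stood farther from the background than rare ones. Among the 28 members with an average of at least 1 per 10000, 12 were lower by 1.5-fold and 1 was higher, while 11.6% of the 1676 genes of that abundance were lower and 10.3% higher. The median percent change of these 28 was -30.2%, and that of the 1676 genes was 4.25%. Of the 6 members with an average of at least 3 per 10000, all 6 were lower in SHR, whereas 32.9% of all genes in that class were.

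The scaling of the libraries bears on every direction. The median log2 ratio of the 7621 genes was -0.21, and when SHR was scaled up to set it to 0, 41 of the 77 genes were lower and 36 higher. The 1.5-fold counts were then 14 lower and 7 higher, beside 17.3% and 13.2% of all genes, so that the lower count lay near the background. Under this scaling the SR, SR-related, DEAD-box, Elavl and Rbfox members remained mostly lower and the snRNP members mostly higher, but the hnRNP family turned from 14 of 16 lower to 6 of 16 lower.

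**Figure D1:**
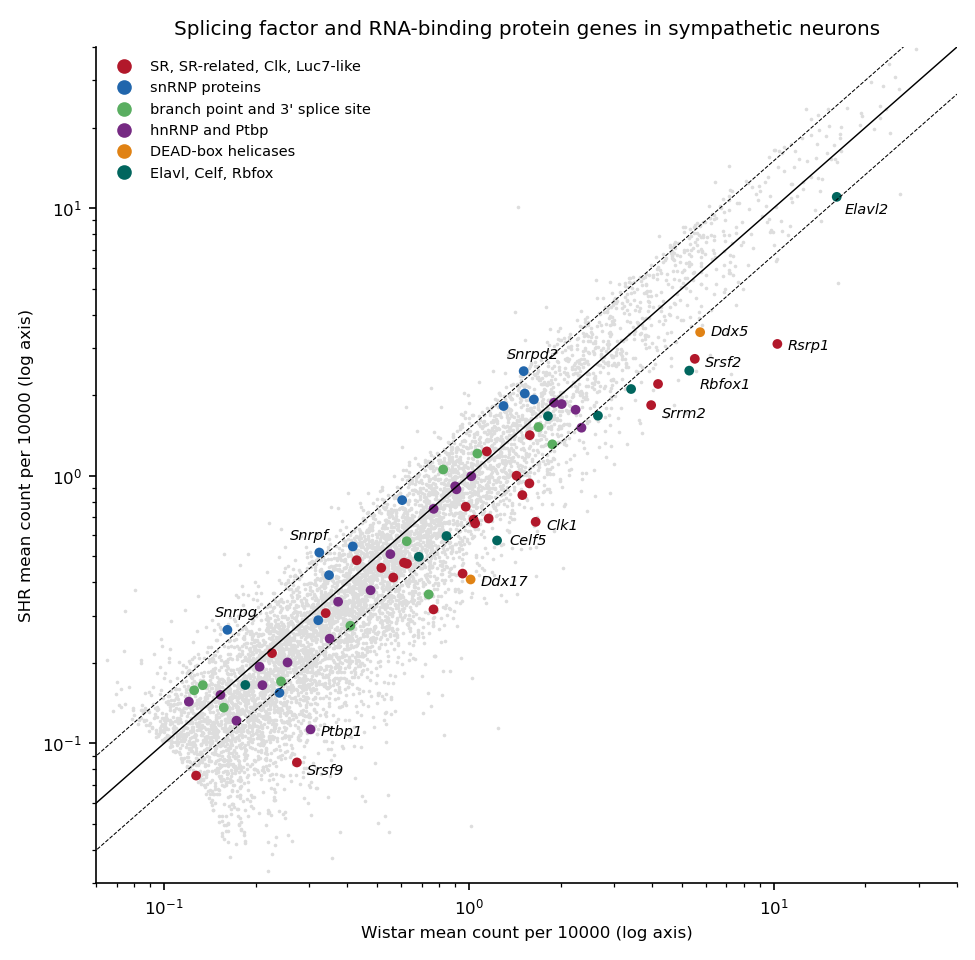
Mean count per 10000 in the Wistar library (horizontal, log axis) against the SHR library (vertical, log axis) for the 77 members past the minimum, coloured by family, over all other genes past the minimum in grey (means of 0 or of 40 and more are not drawn). The solid line marks equal means and the dashed lines a 1.5-fold difference. Rsrp1, Srsf2, Srrm2 and Rbfox1 lie below the lower dashed line, and Snrpd2, Snrpf and Snrpg lie above the upper one.

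**Figure D2:**
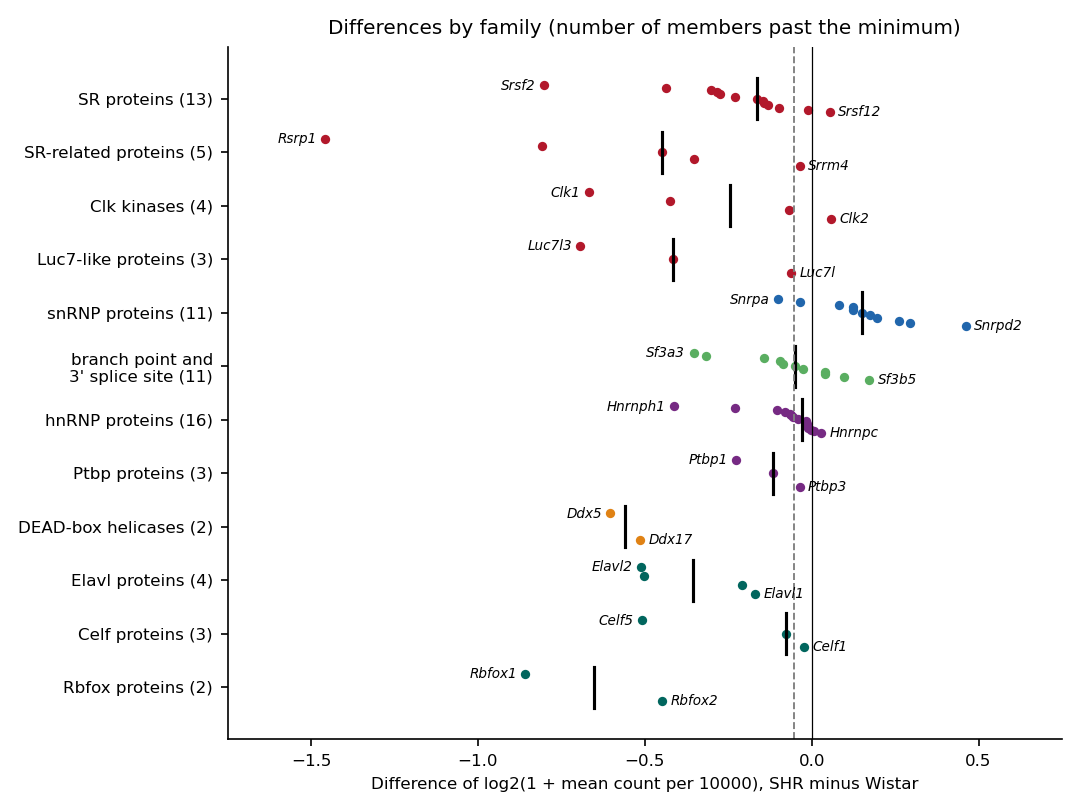
Difference of log2(1 + mean count per 10000), SHR minus Wistar, for each member past the minimum (points) with the median of its family (black bars), and the lowest and highest member of each family named. The dashed line is the median of all 7621 genes, -0.05. Under the deposited scaling only the snRNP family has its median above 0, at 0.15, and the SR-related family reaches the lowest value, -1.46 for Rsrp1.

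Promoter stretches are shown for 3 of the genes with large negative differences and 3 subunits of the Sm ring that were higher in SHR, since these groups moved in opposite directions. These genes were picked after the values were seen. Snrpe was not higher by 1.5-fold, and Snrpf, which was, is not shown. Rsrp1 and Srrm2 had no single promoter available. The stretches are the 120 bases before the start of the gene, from RefSeq on the GRCr8 assembly, which is not the assembly of the deposited values (Rnor_6.0). Capitals mark letters found on either strand, namely CCAAT (the CCAAT box), GGGCGG (the core of a GC box), TATAAA (the TATA box), TGACG (part of a cAMP response element) and CCGGAAG (the core of an ETS site), and neighbouring matches can overlap.

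Srsf2 (GRCr8 chr10:102554142-102554261, minus strand): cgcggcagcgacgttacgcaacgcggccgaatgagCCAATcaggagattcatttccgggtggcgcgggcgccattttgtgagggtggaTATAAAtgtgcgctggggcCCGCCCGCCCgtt
Clk1 (GRCr8 chr9:67453181-67453300, minus strand): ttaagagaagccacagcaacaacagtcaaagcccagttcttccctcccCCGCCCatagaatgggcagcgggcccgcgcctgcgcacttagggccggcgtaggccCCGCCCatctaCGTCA
Luc7l3 (GRCr8 chr10:79773430-79773549, minus strand): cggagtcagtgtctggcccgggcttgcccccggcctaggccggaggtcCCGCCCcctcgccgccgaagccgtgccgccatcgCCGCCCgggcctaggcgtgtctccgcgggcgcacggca
Snrpd2 (GRCr8 chr1:87926289-87926408, plus strand): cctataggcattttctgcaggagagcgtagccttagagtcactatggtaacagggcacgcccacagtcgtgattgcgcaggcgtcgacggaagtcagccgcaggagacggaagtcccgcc
Snrpe (GRCr8 chr13:47609252-47609371, minus strand): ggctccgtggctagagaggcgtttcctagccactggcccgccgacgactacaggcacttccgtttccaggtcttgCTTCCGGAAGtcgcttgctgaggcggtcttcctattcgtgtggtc
Snrpg (GRCr8 chr4:120369591-120369710, plus strand): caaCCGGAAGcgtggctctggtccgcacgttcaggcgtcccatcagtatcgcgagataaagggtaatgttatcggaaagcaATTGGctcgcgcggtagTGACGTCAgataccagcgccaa

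Srsf2 carries TATAAA 32 bases and CCAAT 85 bases before its start. Srsf2, Clk1 and Luc7l3 each hold GGGCGG on the opposite strand at 2 places in these stretches, overlapping in Srsf2. Snrpe holds CCGGAAG on both strands, overlapping, and Snrpg has it 117 bases before the start. Over windows of 300 bases (250 before and 50 after the start), 71 of the 89 genes had a single promoter in the table. GGGCGG was found in 15 of the 20 windows of the SR, SR-related, Clk and Luc7-like genes, or 75.0%, and in 3 of 7 of the Sm genes, beside 35.9% of all 24206 promoters. It was in 61.1% of the windows of members lower by 1.5-fold and in 63.6% of those of members called neither way. The median GC content was 65.3% in the SR, SR-related, Clk and Luc7-like windows, 53.3% in the Sm windows and 52.7% in all promoters. CCGGAAG was found in 4 of 7 windows of the Sm genes and 4 of 20 of the SR, SR-related, Clk and Luc7-like genes, beside 9.49% of all promoters. By call it was in 11.1% of the windows of members lower by 1.5-fold, 25.0% of those called neither way and 1 of 3 called higher, beside 19.7% of all members' windows. CCAAT was present in 30.0% of the SR, SR-related, Clk and Luc7-like windows, in 57.1% of the Sm windows, in 47.9% of all members' windows and in 37.8% of all promoters. TGACG was in 10 of 20 and 3 of 7 windows of these 2 groups, beside 40.8% of all members' windows and 22.2% of all promoters. TATAAA was in 15.0% and 14.3%, beside 11.3% of all members' windows and 14.3% of all promoters. CACGTG, the sixth motif searched, was in 5 of the 71 members' windows, or 7.04%, beside 6.74% of all promoters. These matches describe letters in a window and are not sites of binding.

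SR proteins bind exonic enhancers, and nearly all of them were lower in the SHR library. Of 14 genes, 13 passed the minimum, 12 were lower in SHR and 5 were lower by 1.5-fold, beside 65.6% and 26.5% of all genes. These shares of all genes also hold for the family counts that follow under the deposited scaling. Their summed level was 15.8 per 10000 in the Wistar cluster and 10.3 in that of SHR, or 35.2% lower. With the median ratio of all genes set to 0, 10 of the 13 were still lower.

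Srsf2, an SR protein that stays in the nucleus, was the most abundant of the family, at 5.52 per 10000 in Wistar neurons and 2.73 in SHR neurons, a log2 difference of -0.80. Its rank among all genes went from 212 in Wistar to 548 in SHR. Srsf6 had a mean of 1.5 per 10000 in the Wistar cluster and 0.847 in that of SHR, a log2 difference of -0.44. Both were lower by over 1.5-fold and accounted for the largest differences of the family. Srsf3, the smallest SR protein, was almost level, at 1.59 per 10000 in Wistar neurons and 1.42 in SHR neurons. Srsf1, the founding member, had a mean of 1.43 per 10000 in the Wistar cluster and 1.00 in that of SHR, a log2 difference of -0.28. Tra2a and Tra2b, the transformer 2 proteins that bind purine-rich enhancers, differed from each other. Tra2a had a mean of 1.05 per 10000 in Wistar neurons and 0.664 in SHR neurons, 36.7% lower, and Tra2b went from 0.977 to 0.766, 21.6% lower.

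The remaining SR genes were rarer. Srsf11 was also lower by over 1.5-fold, at 1.04 per 10000 in the Wistar cluster and 0.686 in that of SHR. Srsf9 had the largest percent change of the family, 68.9% lower, but from 0.273 per 10000 in Wistar to 0.0849 in SHR. Srsf4, Srsf5 and Srsf7 were between 22.8% and 26.3% lower. Srsf10 hardly differed, at 0.226 per 10000 in Wistar neurons and 0.217 in SHR neurons. Srsf12 was the single SR gene with a higher mean in SHR, 0.484 per 10000 against 0.429 in Wistar. Srsf8 was listed at 0 in both libraries.

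The SR-related genes, whose products carry arginine and serine repeats without being classical SR proteins, had the largest difference of any family in summed level. Their sum was 16.7 per 10000 in the Wistar cluster and 6.38 in that of SHR, or 61.9% lower, and all 5 had lower means in SHR, 4 of them by 1.5-fold. With the median ratio of all genes set to 0, Srrm4 turned higher and the other 4 stayed lower. Rsrp1, the arginine and serine rich protein 1, ranked 85 among all genes in Wistar at 10.3 per 10000 and 485 in SHR at 3.11 per 10000. Its log2 difference of -1.46 was the lowest of the 77 members, and its mean was 3.31-fold higher in Wistar. Srrm2, a scaffold of nuclear speckles, had a mean of 3.97 per 10000 in Wistar neurons and 1.84 in SHR neurons, a log2 difference of -0.81. Srrm1, its speckle partner, went from 1.16 to 0.693 per 10000, 40.4% lower. The neuronal members differed from each other. Srrm3 was 54.8% lower, at 0.954 per 10000 in the Wistar cluster and 0.431 in that of SHR, while Srrm4, the activator of neuronal microexons, had a mean of 0.339 per 10000 in Wistar neurons and 0.307 in SHR neurons.

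Clk kinases phosphorylate SR proteins and release them from speckles. Clk1 had a mean of 1.66 per 10000 in the Wistar cluster and 0.673 in that of SHR, 59.4% lower, and Clk3 went from 0.766 to 0.317 per 10000, 58.6% lower. Clk2 did not share this direction, with 1.15 per 10000 in Wistar neurons and 1.23 in SHR neurons. Clk4 was 40.5% lower, from 0.127 to 0.0758 per 10000, an average that barely passed the minimum. Clk1 was thus the most abundant kinase of the family in Wistar and Clk2 in SHR. The ratio of Clk1 to Clk2, which no scaling of the libraries can alter, was 1.45 in Wistar and 0.545 in SHR.

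The Luc7-like proteins associate with U1 and help it choose 5′ splice sites. Luc7l3 was the most abundant, at 4.18 per 10000 in the Wistar cluster and 2.20 in that of SHR, a log2 difference of -0.69. Luc7l2 had a mean of 1.58 per 10000 in Wistar neurons and 0.937 in SHR neurons, 40.8% lower. Luc7l differed least, at 0.516 per 10000 in the Wistar cluster and 0.453 in that of SHR, and it turned higher in SHR when the median ratio of all genes was set to 0.

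**Figure D3:**
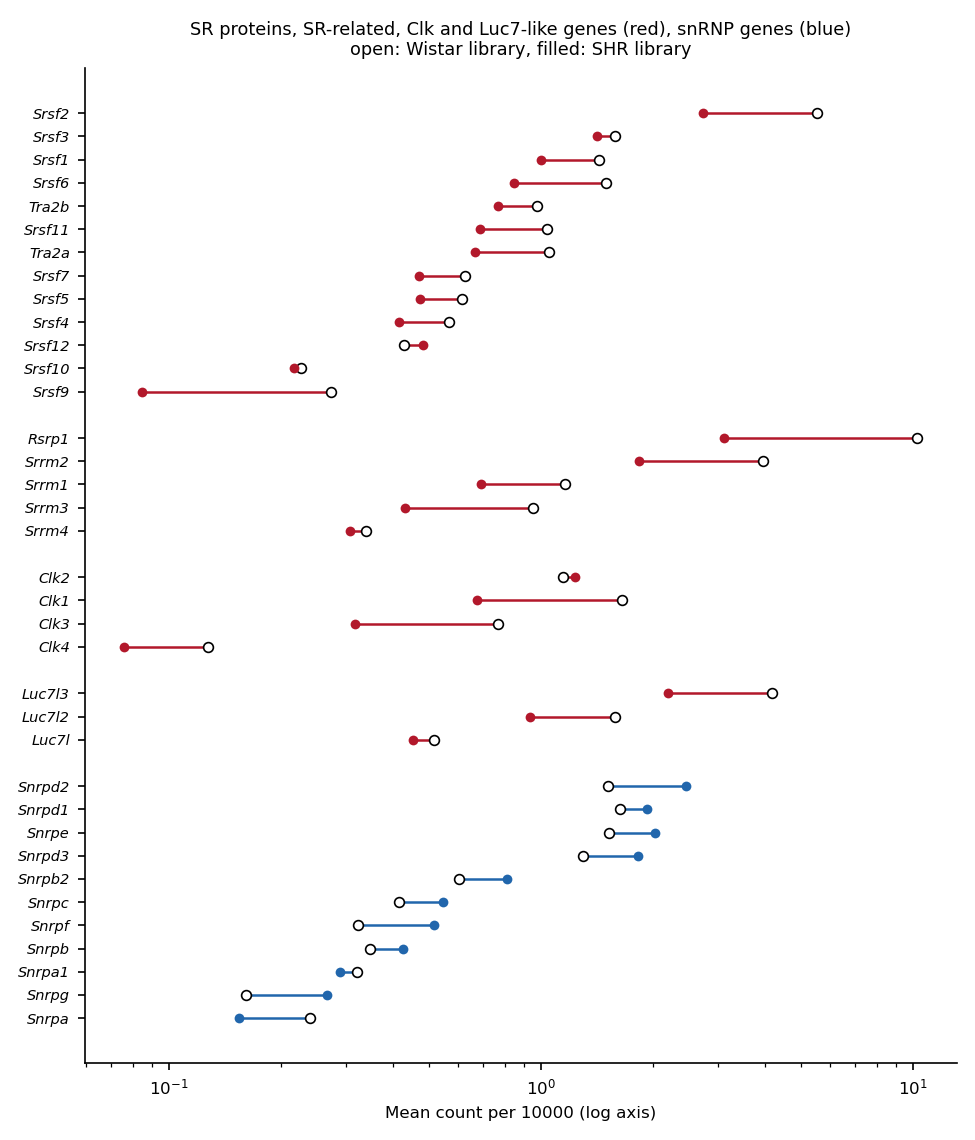
Mean count per 10000 (log axis) of the SR, SR-related, Clk and Luc7-like genes (red) and the snRNP genes (blue) past the minimum, with an open circle for the Wistar library and a filled circle for the SHR library. Of the 25 red genes 23 lie lower in SHR, and of the 11 blue genes 9 lie higher.

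The snRNP proteins went the other way. Of 13 genes, 11 passed the minimum, and 9 of them were higher in SHR under the deposited scaling, as were 2623 of all 7621 genes. With the median ratio of all genes set to 0, 10 of the 11 were higher. Their summed level was 8.44 per 10000 in Wistar neurons and 11.3 in SHR neurons, or 34.1% higher. The 3 members higher by 1.5-fold were all snRNP genes, and all 3 encode subunits of the Sm ring, the 7-membered ring around the snRNA. The Sm genes were singled out after their values were seen.

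All 7 Sm genes had higher means in SHR under each scaling tried, with a median percent change of 40.2%. Snrpd2 had the largest difference of the 77 members in this direction, 0.46, with 1.51 per 10000 in the Wistar cluster and 2.46 in that of SHR. A separate line, Snrpd2l, listed at 0.0164 per 10000 in Wistar neurons and 0.0277 in SHR neurons, bears a closely related name, and reads could be divided between the pair. Snrpg went from 0.161 to 0.266 per 10000, 64.6% higher, and Snrpf from 0.323 to 0.517, 59.8% higher. The other Sm genes were higher by less than 1.5-fold. Snrpd3 had a mean of 1.30 per 10000 in the Wistar cluster and 1.82 in that of SHR. Snrpe had a mean of 1.53 per 10000 in Wistar neurons and 2.03 in SHR neurons. Snrpd1, at 1.64 and 1.93 per 10000, and Snrpb, at 0.348 and 0.425, were higher by 17.9% and 22.3%.

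The snRNP proteins that belong to a single particle did not share a direction. Snrpc, a U1 protein, was 30.8% higher in SHR, at 0.416 per 10000 in the Wistar cluster and 0.544 in that of SHR. Snrpa, another U1 protein, was the single snRNP gene lower by 1.5-fold, at 0.239 per 10000 in Wistar neurons and 0.155 in SHR neurons. The U2 proteins differed likewise, with Snrpb2 34.2% higher and Snrpa1 10.0% lower in SHR. Snrpn, the neuronal paralogue of Snrpb, was under the minimum, at 0.0305 per 10000 in the Wistar cluster and 0.0398 in that of SHR.

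The factors of the branch point and the 3′ splice site differed in direction. Of 12 genes 11 passed the minimum, 7 lower and 4 higher in SHR, and with the median ratio of all genes set to 0 the counts became 4 lower and 7 higher. Sf3b1, the large subunit of the SF3b complex that clamps the branch point, had a mean of 1.88 per 10000 in Wistar neurons and 1.31 in SHR neurons, a log2 difference of -0.32. Sf3b2 was 10.2% lower, at 1.69 and 1.52 per 10000, and Sf3b3 32.7% lower. The small subunits were higher in SHR, with Sf3b5 at 0.824 per 10000 in the Wistar cluster and 1.06 in that of SHR, Sf3b6 23.1% higher and Sf3b4 25.7% higher. Sf3b6 and Sf3b4 averaged only 0.150 and 0.142 per 10000, and no SF3b gene passed 1.5-fold. Sf3b5, Sf3b6 and Sf3b4 lay at percentiles 0.165, 22.2 and 10.7 of gene span, and Sf3b1, Sf3b2 and Sf3b3 at 65.5, 66.0 and 63.6. The part of gene span, described below, in these directions was not tested. In the SF3a complex, Sf3a3 was the single gene of this family lower by 1.5-fold, at 0.739 per 10000 in Wistar neurons and 0.361 in SHR neurons. Sf3a1 and Sf3a2 were 29.6% and 13.3% lower. U2af1, which reads the 3′ splice site, was 13.5% higher in SHR, at 1.07 and 1.21 per 10000. Its partner U2af2 was under the minimum at 0.0193 per 10000 in the Wistar cluster and 0.0325 in that of SHR, and Sf1, the branch point binding protein, had means of 0.626 and 0.569.

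The hnRNP genes had the median difference nearest to 0 under the deposited scaling, though by summed level, 13.0% lower, they lay beside the branch point factors, 12.0% lower. Of 18 genes, 16 passed the minimum, with a median difference of -0.03 on the log2 scale and 14 of 16 lower in SHR, a count that was 6 of 16 with the median ratio of all genes set to 0 and 9 of 16 when totals left out mitochondrially encoded and ribosomal protein genes. Hnrnpa1, a classic silencer protein, had a mean of 1.90 per 10000 in Wistar neurons and 1.87 in SHR neurons, and Hnrnpa2b1, Hnrnpf, Hnrnpd, Hnrnpl and Hnrnpa3 also differed by under 3%. Hnrnpa1 has many processed copies in mammalian genomes, so its level could depend on how shared reads were treated. Hnrnph1, which binds G-rich elements, was the single hnRNP gene lower by 1.5-fold, at 2.34 per 10000 in the Wistar cluster and 1.51 in that of SHR, a log2 difference of -0.41. Hnrnpu had a mean of 2.24 per 10000 in Wistar neurons and 1.77 in SHR neurons, and Hnrnpk of 2.02 and 1.85. Hnrnpc showed the largest difference in the other direction, 18.7% higher in SHR, at 0.121 and 0.143 per 10000. Hnrnpll was just under the minimum, and Hnrnpab was listed at 0 in both libraries.

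Ptbp1 and Ptbp2 replace each other as neurons mature, Ptbp1 prevailing in precursors and other cells and Ptbp2 in neurons. Ptbp1 had a mean of 0.303 per 10000 in the Wistar cluster and 0.113 in that of SHR, 62.7% lower. Ptbp2 had a mean of 0.349 per 10000 in Wistar neurons and 0.246 in SHR neurons, 29.5% lower, so that the ratio of Ptbp1 to Ptbp2 was 0.866 in Wistar and 0.458 in SHR. Ptbp1 is known from non-neuronal cells, and the markers of those cells were also lower in SHR, as given above. The part of those cells in the values of Ptbp1, which averaged only 0.208 per 10000, was not tested. Ptbp3 was 9.17% lower, at 0.373 and 0.338 per 10000.

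The DEAD-box helicases Ddx5 and Ddx17, paralogues that unwind RNA and act in splicing and transcription, were both lower by over 1.5-fold. Ddx5 ranked 198 among all genes in Wistar, at 5.74 per 10000, and 430 in SHR, at 3.44 per 10000. Ddx17 had a mean of 1.01 per 10000 in the Wistar cluster and 0.410 in that of SHR, 59.6% lower. Their log2 differences were -0.60 and -0.51.

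The Elavl proteins, which bind AU-rich elements and stabilise neuronal transcripts, include the most abundant of all members. Elavl2 had a mean of 16.1 per 10000 in Wistar, where it ranked 41 among all genes, and 11.0 in SHR, where it ranked 92. Its log2 difference was -0.51, though the change of 31.6% stayed within the 1.5-fold limit. Elavl4 was lower by over 1.5-fold, at 3.41 per 10000 in Wistar neurons and 2.11 in SHR neurons. Elavl3 was 29.5% lower, at 0.845 and 0.595 per 10000, and Elavl1, the member found in all tissues, was 27.3% lower. All 4 were lower in SHR under each scaling tried.

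Rbfox proteins bind UGCAUG beside neuronal exons. Rbfox1 had a mean of 5.29 per 10000 in the Wistar cluster and 2.47 in that of SHR, a log2 difference of -0.86, the second lowest of the 77 members. Rbfox2 had a mean of 2.65 per 10000 in Wistar neurons and 1.68 in SHR neurons, 36.8% lower. Both were lower under each scaling tried, and Rbfox3 was listed at 0 in both libraries.

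Of the 6 Celf genes 3 passed the minimum. Celf6 was the most abundant, at 1.82 per 10000 in the Wistar cluster and 1.67 in that of SHR, 8.20% lower, whereas Celf5 was 53.7% lower, at 1.24 and 0.573 per 10000. Celf1 had means of 0.185 and 0.165. With the median ratio of all genes set to 0, Celf6 and Celf1 turned higher and Celf5 did not. Celf4 and Celf3 were at most 0.0394 per 10000 in either library, and Celf2 had 0.000629 per 10000 in Wistar and was listed at 0 in SHR. The Nova genes, regulators of synaptic transcripts in the brain, were both under the minimum, with Nova1 at 0.0469 per 10000 in Wistar neurons and 0.0526 in SHR neurons and Nova2 at 0.00756 and 0.00160.

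Ratios between members show how unevenly the families differed, and these pairs were chosen after the values were seen. Srsf2 was 3.64 times as abundant as Snrpd2 in Wistar and 1.11 times in SHR, and Rsrp1 was 6.80 times as abundant as Snrpd2 in Wistar and 1.26 times in SHR. Hnrnph1 exceeded Hnrnpa1 in Wistar, with a ratio of 1.23, and lay under it in SHR, with a ratio of 0.807. Within the neuronal families the order stayed, with Elavl2 over Elavl4 by 4.73 times in Wistar and 5.22 times in SHR, and Rbfox1 over Rbfox2 by 1.99 and 1.47 times.

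Gene span, which the choice of members did not use, went with the difference across the transcriptome, with a Spearman rho of -0.39 over 7289 genes and of -0.29 over the 77 members. These coefficients are over genes of the same pair of libraries and describe them. When all genes were cut into 5 equal groups by span, 37.2% of the group with the shortest spans had a lower SHR mean, and 84.7% of the group with the longest. Among the members, 12 of 18 in the shortest group and 7 of 7 in the longest were lower. Rbfox1 lay at percentile 99.96 of span, Elavl4 at 91.8 and Elavl2 at 90.1, so these neuronal members belong to the class of long genes in which lower values were common. The Sm genes lay between percentiles 6.19 and 36.1. Rsrp1 and Srsf2, at percentiles 7.78 and 6.23, were short genes with large negative differences.

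Each member was then set beside the median difference of the genes in its class, formed from 4 levels of abundance and 5 groups of span. Of the 77 members 44 lay below the median of their class and 33 above it, with a median distance of -0.05. Of the 13 SR genes 11 lay below, with a median distance of -0.18 on the log2 scale over all 13, and so did 4 of the 5 SR-related, 3 of the 4 Clk, 2 of the 3 Luc7-like and both DEAD-box genes. The Elavl and Rbfox genes all lay below their class medians, with a median distance of -0.19 and -0.46. Clk2 and Clk4 lay close to their class medians, at distances of 0.000862 and -0.00963. All 7 Sm genes, singled out after their values were seen, lay above theirs, with a median distance of 0.16. In the whole snRNP family 10 of 11 genes lay above. As in the SR, SR-related, Clk and Luc7-like families, genes of the other families lay on both sides. Below were 6 of 16 hnRNP genes, 5 of 11 branch point genes, 2 of 3 Ptbp genes and 2 of 3 Celf genes.

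**Figure D4:**
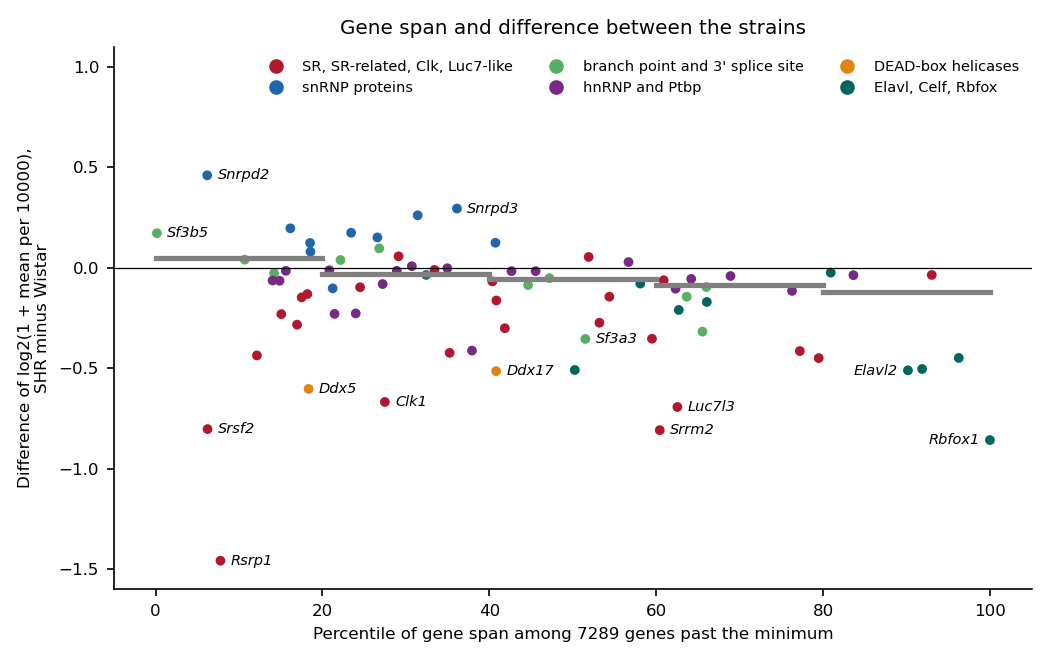
Percentile of gene span among the 7289 genes with a span (horizontal) against the difference of log2(1 + mean per 10000), SHR minus Wistar (vertical), for the 77 members, coloured by family. Grey bars give the median of all genes in each of 5 equal groups of span, which goes from 0.05 in the shortest to -0.12 in the longest. Rsrp1 and Srsf2 lie far below the bar of the short genes and Snrpd2 above it.

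Spliceosome proteins outside these families lay near the background. Of 49 further spliceosome genes, 46 passed the minimum, 29 lower and 17 higher in SHR, beside 65.6% of all genes lower. Their median log2 difference was -0.05, beside -0.05 for all genes. By the 1.5-fold rule 10 were lower and 3 higher, beside 26.5% and 5.22% of all genes. The 3 largest negative differences were those of Ddx39b, an export helicase, at 2.92 per 10000 in the Wistar cluster and 1.29 in that of SHR, Prpf4b, a kinase of the spliceosome, at 1.75 and 0.783, and Prpf18, at 0.909 and 0.337. The 3 largest positive ones were those of Lsm7, at 0.933 and 1.5 per 10000, Lsm4, at 1.36 and 2.00, and Lsm5, at 0.751 and 1.14. Lsm2 to Lsm8 form the ring of the U6 snRNP, and the 6 of these 7 genes past the minimum were all higher in SHR, with a summed level of 4.10 per 10000 in Wistar neurons and 6.20 in SHR neurons. This ring was singled out after its values were seen.

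Among 53 further splicing regulators and RNA-binding proteins, 50 had a line and 36 passed the minimum, of which 30 were lower in SHR, beside 65.6% of all genes. By the 1.5-fold rule 10 of the 36 were lower, close to the background of 26.5%, and 0 were higher, beside 5.22%. Pnisr, a protein with RS repeats, had a mean of 3.65 per 10000 in the Wistar cluster and 1.57 in that of SHR, Pabpn1, the nuclear poly(A) binding protein, of 5.36 and 2.79, and Rbm5 of 1.39 and 0.539. The largest positive differences were small, with Rbm17 at 0.457 and 0.580 per 10000, Ncl at 1.44 and 1.61 and Pabpc1 at 0.534 and 0.603. Of 9 long noncoding RNAs of the nucleus that were listed, Snhg11 was the only one with a line among the genes kept. Its mean was 26.0 per 10000 in Wistar neurons and 11.3 in SHR neurons, 56.6% lower. Mitochondrially encoded genes summed to 1685 per 10000 in the Wistar cluster and 1800 in that of SHR. Snhg11 was lower in SHR, as were Rsrp1 and 12 of the 13 SR genes, whereas 9 of 11 snRNP genes were higher. Any relation of Snhg11 to these genes was not tested.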

How the data were processed

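Stellate ganglia of Wistar rats and SHRs were dissociated and sequenced in 1 droplet library per strain. The submitters' processing notes name Cell Ranger 3.0.2, Seurat 3 and the build Rnor_6.0, and how cells were filtered, how doublets were handled and how many neurons remained are not given in the sources used here. The values deposited by the authors are natural log values, ln(1 + mean count per 10000 counts of a cell), pooled over the sympathetic neuron cluster. A further deposited table holds the authors' own comparison of the strains (p-values, fold changes and shares of cells) and was not used.

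Values were converted back to means per 10000 with Python 3.11.15, NumPy 2.4.6 and pandas 2.3.3, and 25395 genes were kept after dropping 4 lines that shared a name with another. Differences, percent changes and counts past a ratio of 1.5 were computed over all genes with an average of at least 0.1 per 10000, checked on simulated tables with known changes. Spans came from the GRCr8 gene table by symbol or synonym (7289 of 7621 genes, 95.6%) and were used only as ranks. No test between the strains is possible with 1 library each. The precision of a mean is unknown because depth is not given.

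The members and lists were chosen with earlier results of these data known. Genes named are the 3 most abundant, the lowest and the highest difference of each family, all of small families, the 10 lowest and 10 highest members, and the 3 at each end of the other splicing lists. Further members were named after their values were seen. Alternatives were other pseudocounts, scalings, minimums and ratios.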

Additional observations from a re-analysis of the deposited data

How the results depend on the processing

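No paired analysis was possible because a single library stands for each strain. Under the alternatives no named member past 1.5-fold changed direction. Setting the median log2 ratio of genes past 0.1 per 10000 to 0, a scaling chosen after seeing the data, gave 14 members lower and 7 higher by 1.5-fold, in place of 24 and 3, beside 17.3% and 13.2% of all genes. A minimum of 1 per 10000 gave 12 and 1 (all genes 11.6% and 10.3%), a ratio of 2 gave 12 and 0 (11.3% and 0.761%), and the smaller ratio tried gave 41 and 9 (42.1% and 15.5%). With no minimum, 27 of 86 members were lower and 5 higher, beside 41.8% and 12.4% of all genes. The median log2 difference of the members, -0.09, became -0.28 with a pseudocount of 0.1, -0.34 with 0.01 and -0.30 with a minimum of 1 per 10000. The pseudocount sets the size by its construction, and fewer genes remain under a stricter minimum or ratio. Among 48 named members, the pseudocounts of 0.1, 10 and 0.01 moved 34, 34 and 39 log2 differences by 0.1 or more, the scaling to a median ratio of 0 moved 25, and the other scalings moved 0. Depth is unknown, so differences of members under 0.3 per 10000, such as Srsf9, Snrpg, Snrpa and Clk4, rest on the least signal.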
